A study of Mus musculus with 22 samples.

Results

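Slc2a1, Slc2a3, Hk1, Hk2, Pfkl, Pfkm, Pfkp, Pkm, Ldha and Ldhb encode the main glucose carriers of the cell surface and the isoenzymes of 4 later steps of glucose use. They are 10 of the 24454 gene symbols in the count table. They were chosen by name, for their place in the pathway, with earlier results of these data known. The question was how strongly each was expressed in 4 populations of VE-cadherin-positive cells of the mouse aorta-gonad-mesonephros (AGM) region, where endothelium gives rise to blood, and which isoenzyme made up most of each step.

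Glucose enters the cell through facilitative carriers and is then phosphorylated by hexokinase, which keeps it inside. Phosphofructokinase makes the committed step of glycolysis, pyruvate kinase makes pyruvate together with ATP, and lactate dehydrogenase interconverts pyruvate and lactate. Several genes encode each of these activities, and tissues differ in which of them they use. Endothelial cells are known for a strong reliance on glycolysis.

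All cells came from C57BL/6 embryos at E9.5, E10 or E11, and the labels name no allele or treatment. Each library was made from 25 sorted cells by Smart-seq2. CD44Neg cells (10 libraries, of which 4 were E9.5, 3 E10 and 3 E11) and CD44LoKitNeg cells (6 libraries, with 1, 2 and 3 at these stages) are endothelial by their labels. CD44LoKitPos cells (3 libraries, 1 at E9.5 and 2 at E10) and CD44High cells (3 libraries, all at E11) carried more blood transcripts, with a summed level of 10 haematopoietic markers of 457 to 1520 and 1664 to 3184 normalized CPM (counts scaled to the library total and a TMM factor), against at most 227 in CD44LoKitNeg and 46.6 in CD44Neg. The libraries held 3912350 to 8657546 counts, with a median of 5758382.5. The date in the labels changes with the stage, so stage and date cannot be told apart. CD44High and CD44LoKitPos share no stage, and population cannot be told apart from stage and date between them. The labels do not tie libraries to embryos or litters, and p-values therefore measure the spread between libraries, which may be technical in part.

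The marker genes fitted the sort only in part. The summed normalized CPM of 8 endothelial genes was 2684 to 5324 in CD44Neg, 3258 to 8226 in CD44LoKitNeg, 713 to 1646 in CD44LoKitPos and 13.9 to 74.0 in CD44High, where Cdh5, the gene for VE-cadherin, had no count. In the CD44High libraries all 10 macrophage markers had counts, with a summed level of 3760 to 6086, against 168 to 230 in CD44LoKitPos, at most 72.4 in CD44LoKitNeg and at most 16.95 in CD44Neg. Adgre1, C1qa, C1qb and C1qc had no count outside CD44High. The summed level of 11 erythroid markers was 58.8 to 285 in CD44High, against at most 29.2 in CD44LoKitPos, 61.3 in CD44LoKitNeg and 23.7 in CD44Neg, while the adult globin genes Hba-a1, Hba-a2, Hbb-bs and Hbb-bt, near-identical copies whose reads the counting may have dropped, had no count in any library. That of 9 mesenchyme markers was 0.272, 161 and 376 in the CD44High libraries, 18.9 to 41.2 in CD44LoKitPos, 4.19 to 115 in CD44LoKitNeg and at most 36.7 in CD44Neg. That of 8 megakaryocyte markers was 105 to 365 in CD44High and 50.8 to 334 in CD44LoKitPos, against at most 30.8 in CD44LoKitNeg and 16.1 in CD44Neg. The part of these transcripts in the results was not tested.

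CD44LoKitNeg cells had less of the major transcript at nearly every step than CD44Neg cells. Slc2a1, Pfkl, Pfkp, Pkm and Ldha were all lower, by 1.68 to 2.62 on the log2 scale, while Slc2a3, Hk1, Hk2, Pfkm and Ldhb did not pass the test. These 5 lower members of 10 compare with 5.23% of the 11022 genes tested that were called lower (edgeR's quasi-likelihood test, Benjamini-Hochberg adjustment, threshold 0.01), and 10.2% were called in either direction. The median log2 fold change of the 10 members was -1.36, beside 0.01 for all genes tested. Because the members were chosen with earlier results of these data known, these shares are a description and not independent support. In each of the 5 the groups did not overlap, as in 3.08% of all genes in that direction. At E11 alone, where 3 libraries were set against 3, the log2 fold changes were -2.42 for Slc2a1, -1.79 for Pfkl, -3.53 for Pfkp, -2.33 for Pkm and -1.69 for Ldha. In the E9.5 and E10 libraries they were -1.10, -1.94, -2.0, -1.90 and -1.58 in the same order. In bulk libraries, fewer cells that express a gene and less RNA per cell cannot be told apart.

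**Figure D1:**
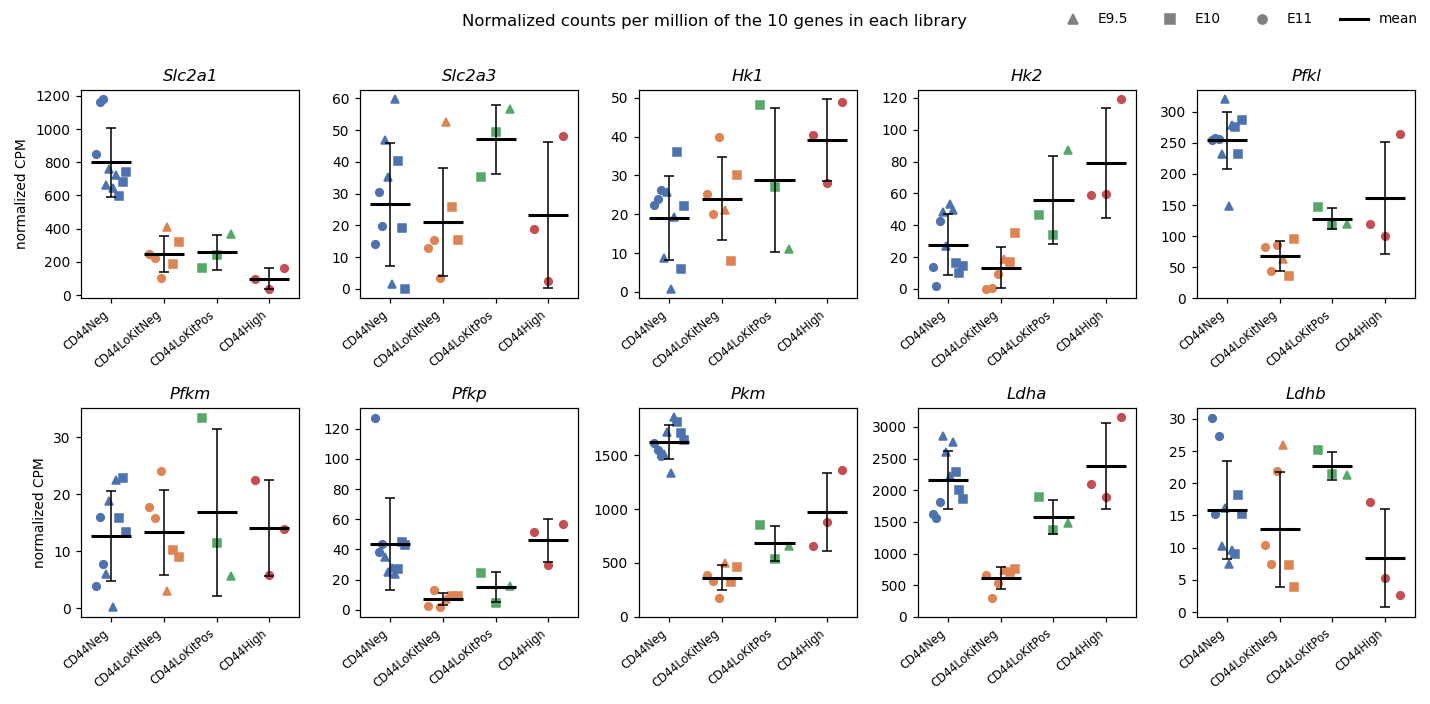
Normalized CPM of each of the 10 genes (vertical axes, a separate scale for each gene) in the 22 libraries, grouped by population, with the stage as the marker shape. Black bars are means and whiskers are 1 SD. For Slc2a1, Pfkl, Pfkp, Pkm and Ldha, the 6 CD44LoKitNeg libraries lie under all 10 CD44Neg libraries.

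Slc2a1 encodes GLUT1, the carrier of basal glucose uptake in endothelium. It ran from 595 through a median of 734 to 1180 normalized CPM in CD44Neg, and from 104 through 235 to 411 in CD44LoKitNeg. The 3 CD44LoKitPos libraries were at 162, 240 and 368, and the 3 CD44High libraries at 37.5, 96.4 and 162. Every other population lay under the lowest CD44Neg library, and the CD44LoKitNeg and CD44LoKitPos values overlapped. The log2 fold change against CD44Neg was -1.68 ± 0.24 (SE) in CD44LoKitNeg (adjusted p = 9.04e-05), -1.64 ± 0.39 in CD44LoKitPos (adjusted p = 0.00947) and -3.02 ± 0.43 in CD44High (adjusted p = 1.18e-05). The CD44LoKitPos call was close to the threshold of 0.01 and was lost with stage in the model (adjusted p = 0.0174), as well as without any 1 of 16 of the 22 libraries (adjusted p up to 0.0952).

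Between CD44High and CD44LoKitPos, Slc2a1 did not pass the test, with a log2 fold change of -1.38 ± 0.44 and an adjusted p of 0.0679. Against CD44LoKitNeg the value was -1.33 ± 0.40 (adjusted p = 0.0161), which also missed the threshold. The levels were highest in CD44Neg, and neighbours in the order of the other 3 populations did not pass the test. These 3 comparisons with CD44Neg share the same 10 control libraries.

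Slc2a3 encodes GLUT3, a carrier with a high affinity for glucose. Its range was 0 to 59.7 normalized CPM in CD44Neg with a median of 25.0, and 3.56 to 52.4 in CD44LoKitNeg with a median of 15.4. It was at 35.2, 49.5 and 56.5 in the CD44LoKitPos libraries and at 2.66, 19.003 and 48.2 in the CD44High libraries. All 4 populations overlapped. The 0 in CD44Neg replicate 10 allows up to 3 counts, or 0.669 normalized CPM. No comparison of Slc2a3 passed the test.

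Measured per kb of exon, Slc2a1 made up 97.2% ± 2.27 (SD, n = 10) of the sum of both carriers in CD44Neg and 94.0% ± 3.15 (n = 6) in CD44LoKitNeg. The share was 86.4% ± 2.11 (n = 3) in CD44LoKitPos and 87.0% ± 7.10 (n = 3) in CD44High. Slc2a1 was above Slc2a3 per length in 22 of 22 libraries. The log2 ratio of the 2 genes was 3.85 in CD44LoKitNeg and 2.39 in CD44LoKitPos, a difference of -1.46, and its exact permutation p (two-sided) of 0.0357 rose to 0.187 after adjustment over 30 ratio tests. At E9.5 and E10, the stages that both populations hold, the ratios were 3.39 and 2.39, a difference of -0.99 whose exact permutation p of 0.1 is the smallest for 3 against 3 libraries. Of 11 other glucose carrier genes on a list, 3 were tested in CD44LoKitNeg against CD44Neg. All 3 missed the threshold, beside 10.2% of all genes called. Slc2a6, another carrier of this family, had no count outside CD44High, where it was at 2.18, 3.99 and 15.2 normalized CPM.

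Hexokinase had the lowest mean levels per length of these steps in all 4 populations. Hk1 encodes the housekeeping hexokinase, bound to mitochondria, and Hk2 an inducible one. Hk1 ran from 0.745 through 22.3 to 36.0 normalized CPM in CD44Neg and from 8.06 through 23.1 to 39.8 in CD44LoKitNeg. It was at 11.2, 27.1 and 48.2 in CD44LoKitPos and at 27.96, 40.4 and 48.97 in CD44High. The ranges of all populations overlapped, and no comparison was called. The fold change in CD44LoKitNeg against CD44Neg was 0.34 ± 0.51 on the log2 scale.

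Hk2 ran from 1.75 through 21.6 to 53.3 normalized CPM in CD44Neg and from 0 through 13.1 to 35.2 in CD44LoKitNeg. The CD44LoKitPos libraries were at 34.2, 46.2 and 87.1, and the CD44High libraries at 58.8, 59.4 and 119. All CD44High values were above every CD44LoKitNeg value, and the log2 fold change of 2.55 ± 0.90 had an adjusted p of 0.0384. CD44LoKitPos exceeded CD44LoKitNeg by 2.05 ± 0.90 (adjusted p = 0.14), and both groups overlapped. No call was made for Hk2 at the threshold of 0.01. The 0 in CD44LoKitNeg replicate 11 allows up to 0.403 normalized CPM.

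The hexokinase share varied widely among libraries of 1 population. Hk1 was 47.9% ± 27.4 (SD, n = 10) of the 2 genes per length in CD44Neg, 70.2% ± 26.5 (n = 6) in CD44LoKitNeg, 38.5% ± 22.4 (n = 3) in CD44LoKitPos and 37.3% ± 6.27 (n = 3) in CD44High. In CD44LoKitNeg the share of Hk1 was 83.0%, 96.3% and 100% in the E11 libraries, against 56.7% in the E9.5 library and 35.7% and 49.8% in the E10 libraries. Hk2 was above Hk1 in 5 of 10, 2 of 6, 2 of 3 and 3 of 3 libraries of these populations. The log2 ratio of Hk1 to Hk2 differed by 2.84 between CD44LoKitNeg and CD44Neg, with an exact permutation p of 0.0853 (adjusted p = 0.187). The difference was 3.77 at E11 alone, 0.91 at E9.5 and E10 (exact permutation p = 0.6) and 1.59 without CD44LoKitNeg replicate 11, which had no Hk2 count, so that its ratio of 8.55 was set by the pseudocount. Another hexokinase gene, Hk3, known from myeloid cells, had no count in the other populations and was at 15.6, 31.7 and 49.2 normalized CPM in the CD44High libraries, where the macrophage markers were also high.

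**Figure D2:**
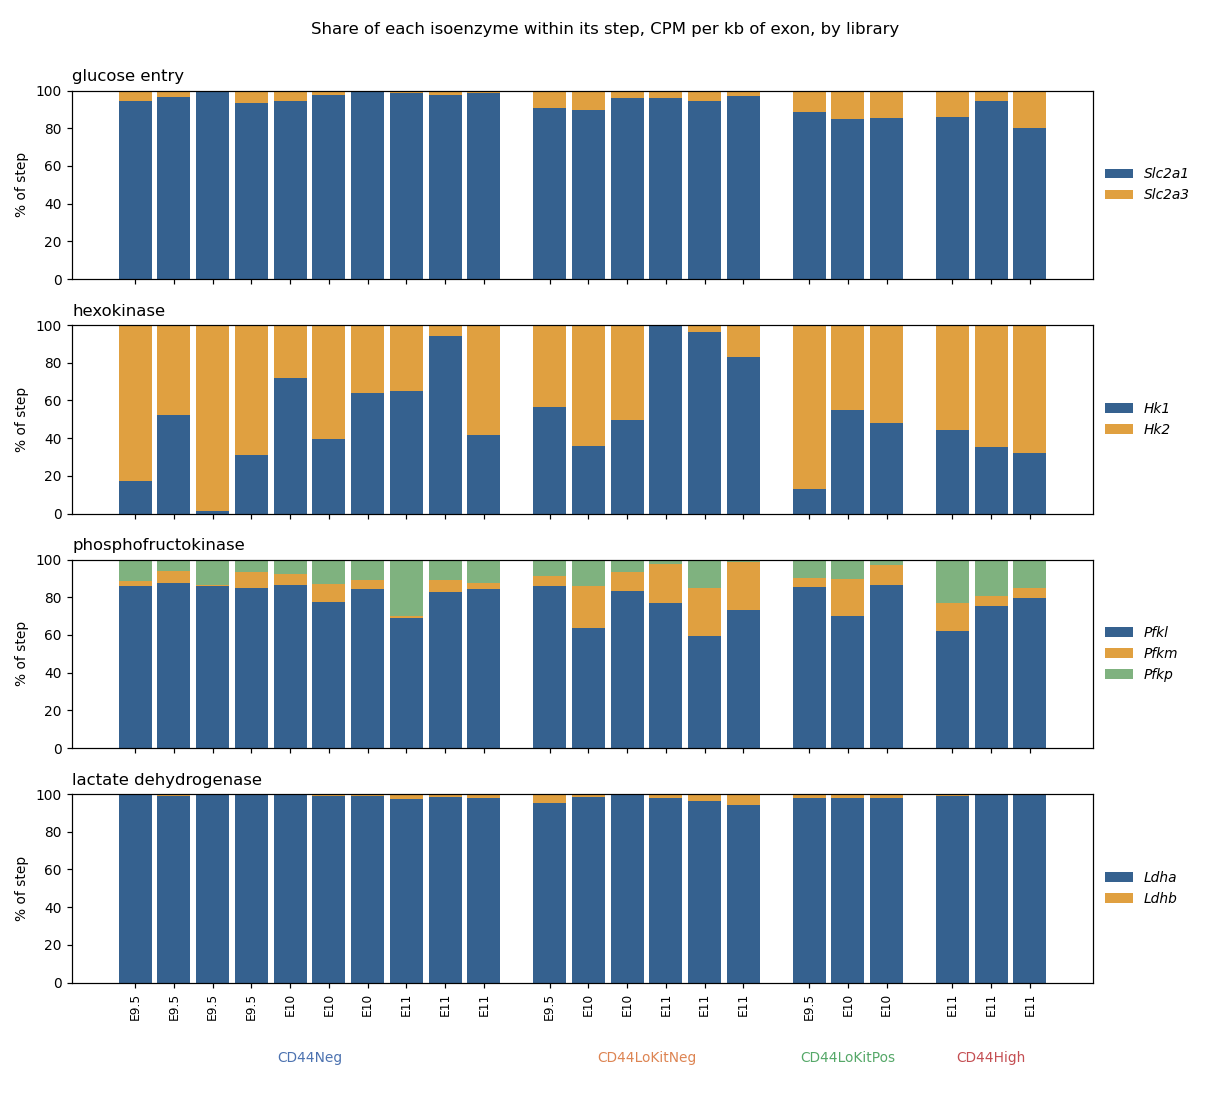
Percent of each step taken by each isoenzyme, from normalized CPM per kb of exon, in the 22 libraries ordered by population and stage. Slc2a1, Pfkl and Ldha hold most of their step in every library, whereas Hk1 and Hk2 exchange places.

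Phosphofructokinase is assembled from subunits named for liver (Pfkl), muscle (Pfkm) and platelets (Pfkp). Pfkl ran from 149 through 257 to 321 normalized CPM in CD44Neg and from 36.1 through 72.6 to 96.2 in CD44LoKitNeg. It was at 118, 120 and 147 in CD44LoKitPos and at 100, 120 and 264 in CD44High. CD44LoKitNeg lay under every library of the other 3 populations. The log2 fold change was -1.89 ± 0.22 in CD44LoKitNeg against CD44Neg (adjusted p = 1.11e-05) and 1.24 ± 0.30 in CD44High against CD44LoKitNeg (adjusted p = 0.00284). The latter fell to 0.62 (adjusted p = 0.17) without CD44High replicate 22, and to 1.06 (adjusted p = 0.0587) at E11 alone. In CD44LoKitPos against CD44LoKitNeg it was 0.91 ± 0.30 (adjusted p = 0.0443).

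Pfkp showed the steepest fall of the 10 genes in CD44LoKitNeg. Its level went from 24.0 through 36.4 to 127 normalized CPM in CD44Neg, where replicate 1 stood apart at the top, and from 1.55 through 7.99 to 12.9 in CD44LoKitNeg. It was at 4.40, 15.8 and 24.5 in CD44LoKitPos and at 29.6, 51.5 and 56.9 in CD44High. CD44LoKitNeg did not overlap CD44Neg or CD44High. The fold change was -2.62 ± 0.48 on the log2 scale against CD44Neg (adjusted p = 7.01e-04). CD44High exceeded CD44LoKitNeg by 2.70 ± 0.58 (adjusted p = 0.00109). At E11 alone the Pfkp call was lost in both comparisons (adjusted p = 0.0297 and 0.0196). Exon bases of Pfkp overlap Pitrm1 on the opposite strand over 17.4% of their length, so reads there may be shared.

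Pfkm ran from 0.186 through 14.6 to 22.8 normalized CPM in CD44Neg and from 3.13 through 13.01 to 24.2 in CD44LoKitNeg. It was at 5.73, 11.5 and 33.5 in CD44LoKitPos and at 5.86, 13.9 and 22.6 in CD44High. The populations overlapped, and the log2 fold change of 0.08 ± 0.61 in CD44LoKitNeg against CD44Neg had an adjusted p of 0.952. In the E9.5 and E10 libraries alone it was -1.18, so its direction depended on the stages used.

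Pfkl was the largest part of the step in 22 of 22 libraries. Per length it made up 82.9% ± 5.69 (SD, n = 10) in CD44Neg, 73.8% ± 10.7 (n = 6) in CD44LoKitNeg, 80.6% ± 9.20 (n = 3) in CD44LoKitPos and 72.4% ± 9.16 (n = 3) in CD44High. The share of Pfkm was 4.94% ± 3.04 in CD44Neg and 18.3% ± 8.64 in CD44LoKitNeg, while that of Pfkp was 12.2% ± 6.80 and 7.87% ± 5.73. Pfkp was above Pfkm in 8 of 10 CD44Neg libraries, 1 of 6 CD44LoKitNeg libraries, 1 of 3 CD44LoKitPos libraries and 3 of 3 CD44High libraries.

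The log2 ratio of Pfkl to Pfkm was 4.88 in CD44Neg and 2.51 in CD44LoKitNeg (difference -2.38, exact permutation p = 0.00425). That of Pfkp to Pfkm was 2.17 and -0.98 (difference -3.16, exact permutation p = 0.00487). The CD44Neg medians of the 2 ratios were 4.26 and 1.46. CD44Neg replicate 6, with 1 count of Pfkm, had the highest values of its population, 9.06 and 6.62. After Benjamini-Hochberg adjustment over 30 ratio tests both had a p of 0.0731, so no ratio passed 0.05, although 6 of the 30 had an unadjusted p under 0.05. With a pseudocount of 5 in place of 0.5, 2 of the 30 passed. At E11 alone the 2 differences were -3.15 and -5.19, and at E9.5 and E10 they were -1.67 and -1.54, both with an adjusted p of 0.617. CD44High against CD44LoKitPos cannot reach 0.05, since the smallest p for 3 against 3 libraries is 0.1. Its largest differences were 2.38 for Ldha to Ldhb and 1.96 for Pfkp to Pfkm.

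Pkm encodes the muscle-type pyruvate kinase, whose transcripts M1 and M2 arise by splicing and are summed in these counts. It ran from 1336 through 1625 to 1854 normalized CPM in CD44Neg and from 174 through 359 to 504 in CD44LoKitNeg. It was at 535, 657 and 856 in CD44LoKitPos and at 658, 883 and 1365 in CD44High. CD44LoKitNeg was under every other library, and CD44LoKitPos was under every CD44Neg library. The log2 fold change was -2.15 ± 0.18 in CD44LoKitNeg against CD44Neg (adjusted p = 4.49e-07), the smallest adjusted p of the 10 genes.

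Relative to CD44LoKitNeg, Pkm was higher in CD44High by 1.42 ± 0.24 (adjusted p = 1.10e-04), and by 0.91 ± 0.24 in CD44LoKitPos, where the adjusted p of 0.0157 missed the threshold. Against CD44Neg it was lower in CD44LoKitPos, with a log2 fold change of -1.25 ± 0.25 (adjusted p = 0.00281). Without CD44LoKitPos replicate 18 or 19 this call was lost (adjusted p = 0.039 and 0.0105). Exons of Pkm share 12.9% of their bases with Gm49759 on the same strand. Of 4 genes for splicing factors of the Pkm transcript, all 4 missed the threshold in CD44LoKitNeg against CD44Neg, beside 10.2% of all genes called. Ptbp1 was at -0.65 ± 0.21 on the log2 scale (adjusted p = 0.0327).

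Ldha encodes the LDH subunit of tissues that make lactate, and Ldhb that of tissues that use it. Ldha was the most abundant of the 10 genes per kb of exon in all 4 populations. It ran from 1564 through 2107 to 2848 normalized CPM in CD44Neg and from 303 through 680 to 750 in CD44LoKitNeg. It was at 1374, 1486 and 1887 in CD44LoKitPos and at 1893, 2097 and 3155 in CD44High. The CD44LoKitNeg libraries lay under all others. The log2 fold change was -1.81 ± 0.20 in CD44LoKitNeg against CD44Neg (adjusted p = 5.67e-06), 1.37 ± 0.24 in CD44LoKitPos against CD44LoKitNeg (adjusted p = 0.00126) and 1.96 ± 0.24 in CD44High against CD44LoKitNeg (adjusted p = 2.09e-06). The CD44LoKitPos call was lost without its replicate 17 (adjusted p = 0.0218).

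Ldhb ran from 7.45 through 15.2 to 30.2 normalized CPM in CD44Neg and from 3.92 through 8.99 to 26.0 in CD44LoKitNeg, with the CD44LoKitPos libraries at 21.3, 21.5 and 25.1 and the CD44High libraries at 2.72, 5.33 and 17.02. The CD44High libraries were all under the CD44LoKitPos libraries, with a log2 fold change of -1.43 ± 0.73 and an adjusted p of 0.317. Ldhb was called in no comparison. Per length, Ldha made up 98.8% ± 0.737 (SD, n = 10), 96.9% ± 1.93 (n = 6), 97.9% ± 0.163 (n = 3) and 99.4% ± 0.538 (n = 3) of the step in CD44Neg, CD44LoKitNeg, CD44LoKitPos and CD44High. The log2 ratio of Ldha to Ldhb was lower by 1.39 in CD44LoKitNeg than in CD44Neg (exact permutation p = 0.0189, adjusted p = 0.179; differences of -0.87 at E11 alone and -1.32 at E9.5 and E10) and higher by 2.69 in CD44High than in CD44LoKitNeg (exact permutation p = 0.0238, adjusted p = 0.179).

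The promoters of the LDH genes, taken from RefSeq (GRCm38.p6) as 250 bases before to 50 after a start site, are shown because these isoenzymes had the widest gap in level within a step. Capitals mark the letters ACGTG or GCGTG on either strand, the core of the sites that hypoxia-inducible factors bind. The palindrome CACGTG, a site of MYC, holds ACGTG on both strands and was counted on each. Ldha has 5 matches of ACGTG and 2 of GCGTG at start site 1, at chr7:46845554-46845853 on the plus strand, which is printed below. Its start site 2, at chr7:46846832-46847131, has 0 of ACGTG and 2 of GCGTG and is not printed. Ldhb has 1 match of GCGTG at chr6:142507908-142508207 on the minus strand. Across 32851 promoters 43.8% hold either motif, and 7.15% hold CACGTG.

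Ldha: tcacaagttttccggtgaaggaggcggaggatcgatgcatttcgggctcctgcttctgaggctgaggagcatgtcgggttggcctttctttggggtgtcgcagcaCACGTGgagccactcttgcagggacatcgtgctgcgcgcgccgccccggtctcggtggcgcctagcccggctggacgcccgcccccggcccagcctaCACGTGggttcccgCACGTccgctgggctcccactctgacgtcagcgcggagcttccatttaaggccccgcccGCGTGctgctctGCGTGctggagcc

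Ldhb: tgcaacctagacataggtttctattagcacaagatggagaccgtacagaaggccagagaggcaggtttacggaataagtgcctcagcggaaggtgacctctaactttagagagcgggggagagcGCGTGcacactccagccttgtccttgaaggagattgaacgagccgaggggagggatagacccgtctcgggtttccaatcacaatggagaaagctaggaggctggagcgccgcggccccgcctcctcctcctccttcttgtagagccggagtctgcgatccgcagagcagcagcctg

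A match is a description of letters in this window and not of a site in use. Of 15 start sites found for 9 of the members, 12 held a match. Slc2a3 was not among them.

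**Figure D3:**
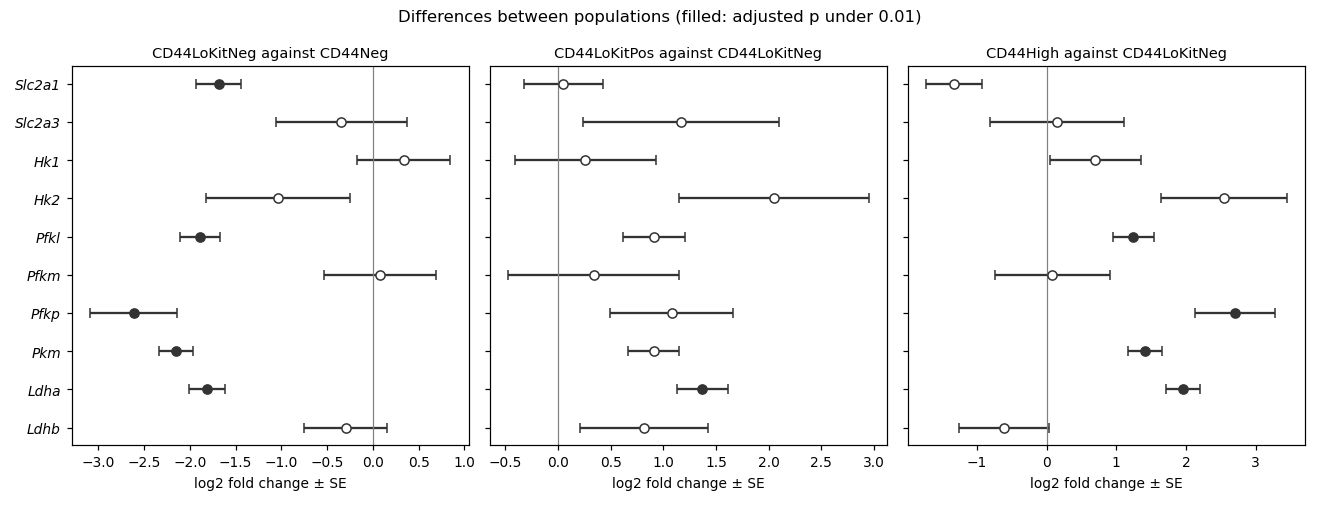
Log2 fold changes with their SE (horizontal axis) for the 10 genes in 3 comparisons, with filled points where the adjusted p was under 0.01. The 5 filled points in CD44LoKitNeg against CD44Neg are all to the left of 0, and those in CD44High against CD44LoKitNeg (4) are to the right.

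CD44High had 4 members higher than CD44LoKitNeg (Pfkl, Pfkp, Pkm and Ldha), beside 7.79% of the 12949 genes tested, and 5 without overlap in that direction beside 13.6%. CD44LoKitPos had 1 member higher than CD44LoKitNeg (Ldha), beside 2.55% of all genes, and 3 without overlap in that direction (Pfkl, Pkm and Ldha) beside 9.55%. Both comparisons share the CD44LoKitNeg libraries with the one against CD44Neg. The median log2 fold change of the members was 0.97 in CD44High and 0.91 in CD44LoKitPos, beside 0 and -0.02 for all genes. CD44LoKitPos against CD44Neg called 2 members lower (Slc2a1 and Pkm), beside 1.41% of all genes, and 3 (with Pfkl) did not overlap, beside 4.37%. CD44High against CD44Neg called 1 (Slc2a1), beside 7.25%, and 2 did not overlap (Slc2a1 lower and Hk2 higher), beside 18.8% in either direction. CD44High against CD44LoKitPos, where population and stage cannot be told apart, called none, beside 3.01% of all genes in either direction, with 2 members (Slc2a1 and Pfkp) under an unadjusted p of 0.05 by edgeR's quasi-likelihood test, beside 17.8%, and none called by DESeq2. In it 3 members did not overlap (Pfkp, Ldha and Ldhb), beside 23.9% of genes. With the threshold at 0.05, 3 members passed in CD44LoKitPos against CD44LoKitNeg, beside 12.5% of genes, and 2 in CD44High against CD44Neg, beside 22.5%.

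Most tested genes of the other steps of glycolysis were also lower in CD44LoKitNeg than in CD44Neg. Of 16 genes on a list of the remaining steps, 11 were tested, 7 were lower, beside 5.23% of all genes tested, 1 was higher, beside 4.94%, and 3 did not pass. The median log2 fold change of the 11 was -1.26. This list was also chosen with earlier results of these data known. The 7 were Gpi1, Aldoa, Tpi1, Gapdh, Pgk1, Pgam1 and Eno1b, which act between hexokinase and pyruvate kinase, with log2 fold changes from -1.23 for Gpi1 to -2.06 for Eno1b. Several of these genes have near-identical copies in the genome, so their counts may be split. Eno1, on the same list as Eno1b, was not called in this comparison. Bpgm, which makes 2,3-bisphosphoglycerate beside the main pathway, was higher by 1.66 ± 0.40 (adjusted p = 0.00556). In CD44High against CD44LoKitNeg 6 of the 11 were higher, beside 7.79% of all genes, and none lower, with Tpi1 at 1.95 and Pgam1 at 2.00, and in CD44LoKitPos against CD44LoKitNeg 3 were higher, beside 2.55%, with Gapdh at 1.27.

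Genes for lactate transport and regulators were called in both directions in CD44LoKitNeg against CD44Neg. Of 6 genes for lactate transport, 4 were tested, 1 was higher, beside 4.94% of all genes, 1 was lower, beside 5.23%, and 2 did not pass, namely Slc16a1 at -0.59 ± 0.51 (adjusted p = 0.463) and Bsg at -0.04 ± 0.16 (adjusted p = 0.916). Slc16a3, the exporter MCT4, fell from 48.6 ± 20.2 normalized CPM (SD, n = 10) in CD44Neg to 8.48 ± 6.30 (n = 6) in CD44LoKitNeg (log2 fold change -2.51 ± 0.48, adjusted p = 0.00107). Emb, the gene for embigin, a partner of lactate carriers, rose by 3.12 ± 0.32 (adjusted p = 3.5e-06). Of 16 tested genes of the hypoxia pathway and MYC, 3 were higher, beside 4.94% of all genes tested, and 1 was lower, beside 5.23%. The median log2 fold change of the 16 was -0.01.

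Myc, a transcription factor whose targets include glycolytic genes, was lower in CD44LoKitNeg, with a log2 fold change of -1.97 ± 0.24 (adjusted p = 1.71e-05). Epas1, which encodes HIF-2α, was higher by 1.93 ± 0.32 (adjusted p = 3e-04), Vegfa by 3.00 ± 0.69 (adjusted p = 0.00416) and Txnip, an inhibitor of glucose uptake, by 1.04 ± 0.27 (adjusted p = 0.00905). Hif1a was at -0.13 ± 0.17 (adjusted p = 0.652). In CD44High against CD44LoKitNeg, Myc was higher by 2.81 ± 0.27 (adjusted p = 5.17e-08). In CD44LoKitNeg against CD44Neg, all 12 tested genes for the entry of pyruvate into mitochondria missed the threshold, beside 10.2% of all genes called in either direction, and 5 of them had an unadjusted p under 0.05 by edgeR's quasi-likelihood test, beside 32.6%. For the pentose phosphate pathway 1 of 7 was lower (Tkt), beside 5.23%. In CD44High against CD44LoKitNeg, 1 of 13 tested genes of the former list was higher (Pdha1), as were 3 of 8 of the latter (Tkt, G6pdx and Taldo1), beside 7.79% of all genes, and none was lower.

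The summed level of 10 proliferation markers was 1480 to 3624 normalized CPM in CD44Neg, 323 to 3892 in CD44LoKitNeg, 1484 to 3321 in CD44LoKitPos and 3586 to 3700 in CD44High. None of the 10 was called in CD44LoKitNeg against CD44Neg, beside 10.2% of all genes tested, but their median log2 fold change was -0.88. The lowest values were in CD44LoKitNeg libraries, with replicate 14 at the top of that population. Of 7 neural markers, the summed level was 111 to 689 in CD44LoKitNeg and 23.9 to 110 in CD44Neg, and Sox2, Elavl3, Dcx and Neurog2 had no count in CD44LoKitNeg. Stmn2 alone was at 111 to 683 there. The part of these markers in the results above was not tested.

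Stage was tested within CD44Neg, the population with at least 3 libraries at each stage. None of the 10 members was called between any pair of stages, beside 0.684% of 11250 genes in E11 against E9.5, 0.0178% in E10 against E9.5 and 0% in E11 against E10. The members with an unadjusted p under 0.05 numbered 4, 2 and 2 in these pairs, and DESeq2 called 2, 0 and 1. Of all genes, 17.1%, 15.2% and 8.68% had an unadjusted p under 0.05 in the same order, and DESeq2 called 429, 231 and 45. Slc2a1 had means of 698 ± 53.3 (SD, n = 4), 673 ± 74.1 (n = 3) and 1064 ± 185 (n = 3) normalized CPM at E9.5, E10 and E11. Its log2 fold change from E9.5 to E11 was 0.63 ± 0.15, with an adjusted p of 0.0314 by edgeR's quasi-likelihood test.

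Ldha had means of 2606 ± 279, 2047 ± 213 and 1668 ± 131 normalized CPM in CD44Neg at the same stages, and its change from E9.5 to E11 was -0.62 ± 0.12 on the log2 scale (adjusted p = 0.0134). The E11 libraries were under the E9.5 libraries, at 1564 to 1815 against 2216 to 2848. Both genes were called by DESeq2, and both passed an adjusted p of 0.05, as did 3.13% of all genes. Pfkp was at 27.8 ± 4.97 and 69.7 ± 50.1 at E9.5 and E11 (1.34 ± 0.40, adjusted p = 0.0887), a mean carried by replicate 1 at E11. Hk2 was at 44.6 ± 11.9, 13.6 ± 3.05 and 19.4 ± 20.9.

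In CD44LoKitNeg, E11 against the earlier stages (3 against 3 libraries) called no member, beside 0.173% of 11010 genes, and none had an unadjusted p under 0.05, beside 16.8% of genes. DESeq2 called none of the members either. Slc2a1 was at 411 in the E9.5 library, 185 and 318 in the E10 libraries and 104, 224 and 245 in the E11 libraries. The interaction of population and stage at E10 and E11 was called for no member, beside 0.00806% of 12403 genes, and 1 member had an unadjusted p under 0.05, beside 10.7% of genes. That was Slc2a1, with a term of -1.07 ± 0.43 (p = 0.0255, adjusted p = 0.383, edgeR's quasi-likelihood test).

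**Figure D4:**
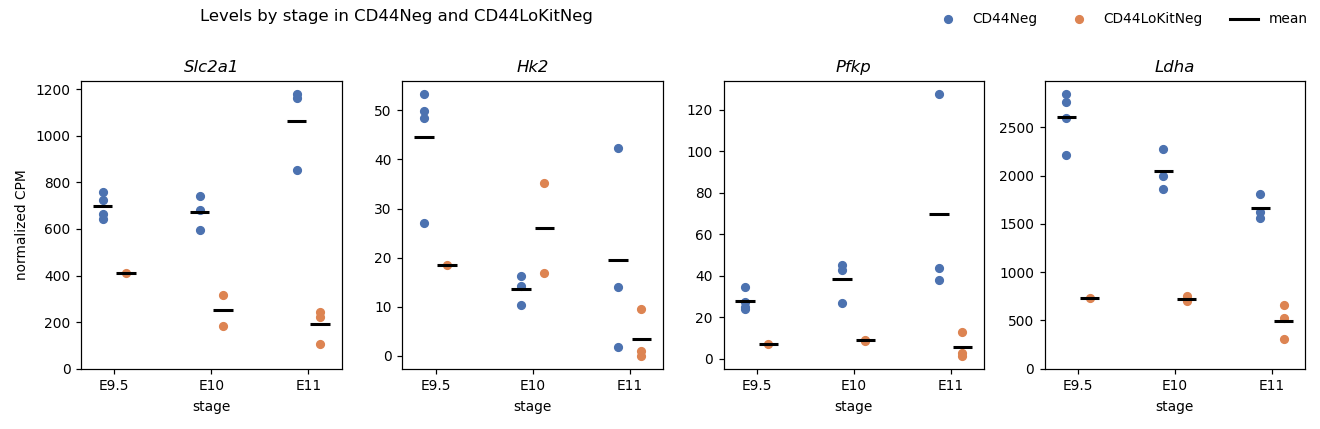
Normalized CPM (vertical axes) of 4 of the genes by stage in CD44Neg and CD44LoKitNeg, a point for each library and a bar for the mean. Ldha means fall from 2606 to 1668 in CD44Neg from E9.5 to E11, and Slc2a1 is highest at E11 in CD44Neg.

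Across the 22 libraries, the genes whose log2 CPM was most like a member's were mostly outside the pathway. Pfkl was most like Pkm (Pearson r = 0.893), Cyc1 and Pgam1, Pkm was most like Slc29a1 (r = 0.947), Ldha was most like Rps2 (r = 0.945) and Slc2a1 most like Sar1a (r = 0.916). The highest likeness for Ldhb was 0.694, with Dnajb2. These values share the library scaling and the populations, and are given as a description.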

How the data were processed

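The 22 libraries were RNA-seq of 25 sorted cells each, amplified over 14 PCR cycles by Smart-seq2. The authors deposited raw counts per gene, for 24454 gene symbols, after trimming with FASTX, alignment with RNA STAR and counting with htseq-count (genome mm10 per the submitters' processing notes, which name FastQC and HTSeq). Tool versions, the annotation and the strand setting are not given in the sources used here.

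The members and the gene lists were chosen with earlier results of these data known. Every member is named with its values. From the other lists, genes called in CD44LoKitNeg against CD44Neg could be named, and elsewhere up to 4 called genes of each list with the largest change, as well as the 3 genes most like each member. Slc2a6, Hif1a, Ptbp1 and the markers named by level were added after their values were seen.

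Counts were tested with edgeR 4.0.16 (quasi-likelihood F test, TMM scaling, filterByExpr with a minimum count of 10) in R 4.3.3, with Benjamini-Hochberg adjustment over all genes tested and calls at an adjusted p under 0.01. CD44LoKitNeg against CD44Neg used those 16 libraries. Other population comparisons used all 22, and stage comparisons the libraries of their population. Standard errors were derived from the F statistic. The isoenzyme ratios were log2 ratios of counts with a pseudocount of 0.5, compared by two-sided exact permutation tests with adjustment over 30 tests. Levels per kb used GENCODE M21 exons (GRCm38). In tests on simulated data many true changes went uncalled, most often in CD44High against CD44LoKitPos, the stages of CD44LoKitNeg and the interaction, so a gene that missed the threshold is not shown to be unchanged. Alternatives were DESeq2 1.42.0 scaling and its Wald test, other filters, stage as a covariate, single stages and leaving out each library. Intervals and limits for a count of 0 cover counting error only.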

Additional observations from a re-analysis of the deposited data

Results flagged for a closer look

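Within CD44Neg and CD44LoKitNeg, each of the 10 genes was checked for a library whose gap to the nearest other library was wide for the range of its population. Of 20 such checks 2 stood out, and chance alone gives about 1 in 20. Pfkl, the liver-type phosphofructokinase, was at 149 normalized CPM in CD44Neg replicate 6 (E9.5), under the other 9 libraries at 232 to 321. The same library had 1 count of Pfkm, 4 of Hk1 and 8 of Slc2a3, and the fewest genes detected of all libraries (10825). Pfkp, the platelet-type phosphofructokinase, was at 127 normalized CPM in CD44Neg replicate 1 (E11), above the other 9 libraries at 24.0 to 45.2. Without replicate 1 the log2 fold change of Pfkp in CD44LoKitNeg against CD44Neg was -2.27, still called. The cause of either value was not tested.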

How the results depend on the processing

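No paired analysis was possible because the replicate numbers (1 to 22) are unique to each library. Of the 10 members, the number called in CD44LoKitNeg against CD44Neg stayed within 1.5 times of 5 under all alternatives run. At an adjusted p under 0.05 the number called was 3 in CD44LoKitPos against CD44LoKitNeg, 2 in CD44High against CD44Neg and 2 in CD44Neg E11 against E9.5. With the DESeq2 Wald test it was 2 in CD44High against CD44Neg, 1 in CD44Neg E11 against E10 and 2 in E11 against E9.5, and with no filter 1 in E11 against E9.5. With stage as a covariate CD44LoKitPos against CD44Neg kept 1, and at E11 alone CD44High against CD44LoKitNeg kept 2.

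Leaving out 1 library gave 0 to 2 calls in CD44LoKitPos against CD44LoKitNeg (0 without CD44LoKitPos replicate 17, 2 without CD44LoKitNeg replicate 14), 0 to 2 in CD44LoKitPos against CD44Neg (0 without CD44LoKitPos replicate 18), 1 to 3 in CD44High against CD44Neg (2 without CD44LoKitNeg replicate 13, 3 without CD44High replicate 22) and 0 to 1 in CD44Neg E11 against E9.5 (1 without CD44Neg replicate 6). The ratio tests past 0.05 went from 0 to 2 with a pseudocount of 5 and without CD44LoKitNeg replicate 14.

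Signs turned for uncalled values of CD44LoKitNeg against CD44Neg. Pfkm was at -0.16 with stage as a covariate, -1.18 in E9.5 and E10 alone, and -0.03, -0.04, -0.02 and -0.18 without CD44Neg replicate 1, CD44Neg replicate 6, CD44LoKitNeg replicate 11 and CD44LoKitNeg replicate 13. In E9.5 and E10 alone Slc2a3 was at 0.31, Hk2 at 0.27 and the log2 ratio Pfkl/Pfkp at -0.13. Lengths from the longest coding transcript, chosen after the data were seen, moved no share beyond its spread. Over all genes, calls in CD44LoKitNeg against CD44Neg ranged from 376 at E11 alone to 2217 at an adjusted p under 0.05, around 1121. Over the alternatives run, the counts ranged from 65 (without CD44LoKitPos replicate 17) to 1619 (at an adjusted p under 0.05) around 552 in CD44LoKitPos against CD44LoKitNeg, 159 to 941 around 451 in CD44LoKitPos against CD44Neg, 116 to 784 around 390 in CD44High against CD44LoKitPos, 1179 to 3471 around 2067 in CD44High against CD44LoKitNeg and 839 to 2917 around 1864 in CD44High against CD44Neg. For the stage comparisons the DESeq2 Wald test called 231, 45 and 429 genes in CD44Neg (E10 against E9.5, E11 against E10, E11 against E9.5) and 558 in CD44LoKitNeg, against 2, 0, 77 and 19, and 121 against 1 for the interaction. The cause of these shifts was not tested.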
